A study of Mus musculus with 8 samples.

Results

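The RNA of 10 mouse genes of arginine and polyamine metabolism was followed in cultured group 2 innate lymphoid cells (ILC2s) of the lung, with and without interleukin 33 (IL-33) and with and without a deletion of Stat3. The genes were taken by name from the deposited table as Arg1, Arg2, Odc1, Srm, Sms, Amd1, Sat1, Azin1, Oaz1 and Smox, and all 10 were found among its 22075 genes. C57BL/6 mice were briefly exposed to papain, a plant protease that serves as an airway allergen, and their lung ILC2s were grown for about 5 days in 10 ng/ml interleukin 2 (IL-2). There were 4 groups of 2 libraries. STAT3-KO cells with IL-33 came from mice with floxed Stat3 and the Vav-iCre transgene and were then kept with IL-33 at 10 ng/ml for 2 days. WT cells with IL-33 came from Stat3 fl/fl mice without the transgene and received the same. STAT3-KO control and WT control cells are labelled as control, and the labels do not describe their medium in those days. Vav-iCre acts in blood-forming cells at large, so other blood cells of these mice lacked Stat3 too, and an effect of the deletion cannot be told apart from one of the transgene. The labels do not say whether replicates came from separate mice or cultures, so the tests measure only the spread between these libraries, which may be technical.

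Arginase splits arginine into urea and ornithine, and ornithine decarboxylase turns ornithine into putrescine, the smallest of the common polyamines. Spermidine synthase and spermine synthase then add aminopropyl groups that come from decarboxylated S-adenosylmethionine, while acetylation and oxidation lead back from spermine and spermidine towards putrescine. Antizyme, which cells make when polyamines are abundant, binds ornithine decarboxylase and sends it to the proteasome, and antizyme inhibitor takes antizyme away. In lung ILC2s arginase 1 is known to be made already at rest and has been linked to their metabolism and proliferation.

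The values are FPKM, in which the count of a gene is divided by its exon length and by the size of the library. Levels can thus be set side by side between genes, but only roughly. All exons of a gene together can be longer than each of its transcripts. Between 15843647 and 19905773 reads per library were recovered from the steps of the values. Stat3 itself was at 8.03 and 9.69 FPKM in STAT3-KO cells with IL-33 against 49.0 and 55.3 FPKM in WT cells with IL-33, and at 15.3 and 16.0 FPKM in STAT3-KO control against 41.7 and 50.7 FPKM in WT control, so that transcripts carrying its name remained in the STAT3-KO libraries. All 11 ILC2 markers examined, Gata3 and Il1rl1 among them, reached 1 FPKM in some library, although Il17rb was at 0.232 and 0.471 FPKM in STAT3-KO cells with IL-33. Of 10 macrophage and monocyte markers, a lineage known for Arg1, 5 were listed and only Cd68 reached 1 FPKM, with a highest value of 5.68 FPKM. Differences were tested on log2(FPKM + 1), which understates the change of low genes, with limma across all 11877 genes that reached 1 FPKM in at least 2 libraries, and a gene was called at a Benjamini-Hochberg adjusted p under 0.05. In such bulk libraries, fewer cells that make an RNA and less RNA per cell cannot be told apart.

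With IL-33, 4 of the 9 tested members were called higher and 1 lower in STAT3-KO cells, namely Odc1, Srm, Sms and Smox against Arg1. Among all tested genes 51.0% were called in this comparison, 20.4% higher and 30.6% lower. In WT cells IL-33 raised Odc1, Sms, Azin1 and Smox and lowered no member, where 36.1% of all tested genes were called, 14.5% higher and 21.6% lower. STAT3-KO cells with IL-33 had more Srm and Sms and less Arg1, Azin1 and Smox than WT cells with IL-33, 2 members higher and 3 lower, beside 32.6% of all tested genes called, 16.3% higher and 16.4% lower. No member was called between STAT3-KO control and WT control, where 0.463% of all tested genes were called, 0.253% higher and 0.21% lower. The members nearest to a call there were Amd1 (limma adjusted p = 0.446), Odc1 and Srm (limma adjusted p = 0.458 for both). The IL-33 response of STAT3-KO cells differed from that of WT cells, by a test of that difference, for 1 member upward, Srm, and 2 downward, Arg1 and Smox, beside 15.1% of all tested genes, 6.72% upward and 8.43% downward. The median log2 difference of the 9 members with IL-33 was 0.40 in STAT3-KO and 0.41 in WT cells, against -0.18 and -0.14 over all tested genes in the same order of genotypes. Comparisons with a group in common share its 2 libraries, so their values are not independent of each other.

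**Figure D1:**
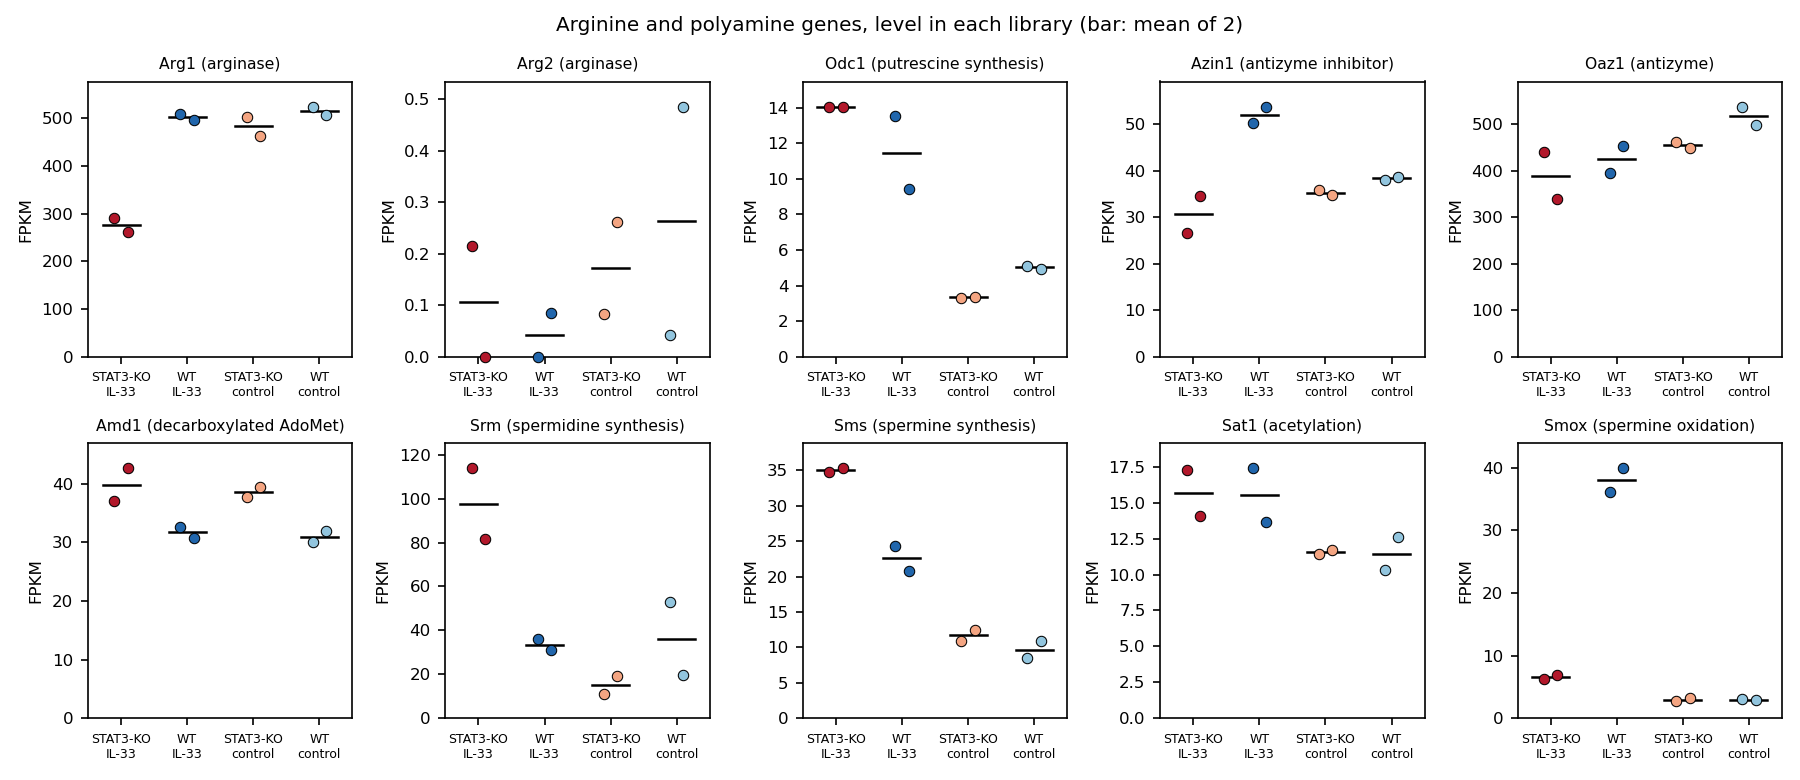
Level of each of the 10 members in FPKM (vertical axes, each from 0) in the 8 libraries. Points are libraries and bars the means of 2, with STAT3-KO with IL-33, WT with IL-33, STAT3-KO control and WT control from left to right. Arg1 is lowest in STAT3-KO with IL-33, at 292 and 261 FPKM, and Smox highest in WT with IL-33, at 36.1 and 39.9 FPKM.

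Arg1, the cytosolic arginase (ENSMUSG00000019987, GRCm38 chr10:24915221-24927484, minus strand), was among the most abundant RNAs of these cells and ranked between 63 and 177 of all listed genes by FPKM. It stood at 292 and 261 FPKM in STAT3-KO cells with IL-33, 510.5 and 496 FPKM in WT cells with IL-33, 503 and 464 FPKM in STAT3-KO control and 525 and 508 FPKM in WT control. Both STAT3-KO libraries with IL-33 lay far below the other 6, which spanned 464 to 525 FPKM. IL-33 lowered Arg1 in STAT3-KO cells to 0.572 of the mean in STAT3-KO control, a log2 difference of -0.81 ± 0.09 (SE, limma, adjusted p = 0.000204). In WT cells the log2 difference with IL-33 was -0.04 (95% interval -0.25 to 0.17, limma adjusted p = 0.776), with overlapping groups. That value changed sign under median-of-ratios rescaling and quantile normalization, and in no fit was it called. With IL-33 present, STAT3-KO cells held 0.549 of the WT mean (log2 difference -0.86 ± 0.09, limma adjusted p = 0.000294), and the responses of the genotypes differed by -0.77 ± 0.13 (limma adjusted p = 0.00749).

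Summed macrophage and monocyte markers were at 3.23 to 6.74 FPKM in STAT3-KO cells with IL-33 and 5.87 to 6.78 FPKM in WT cells with IL-33, and at 0.595 to 2.66 FPKM in STAT3-KO control and 0.312 to 1.52 FPKM in WT control. Only Cd68 among these markers reached 1 FPKM, and Csf1r, Mrc1, Marco, Chil3 and Fcgr1 were not listed. The part of macrophages and monocytes in the Arg1 result was not tested. Of 6 mast cell and basophil markers 3 were listed, and their sum was 7.49 to 8.68 FPKM in STAT3-KO with IL-33, 127 to 155 FPKM in WT with IL-33, 111 to 140 FPKM in STAT3-KO control and 299 to 326 FPKM in WT control. Cpa3, a mast cell carboxypeptidase, and Mcpt8, a basophil protease, made up that sum, while the granule protease Cma1 reached at most 0.914 FPKM. Cpa3 and the sum were lowest where Arg1 was lowest, while Mcpt8 was at most 0.246 FPKM there and at most 0.126 FPKM in the controls, and their part in the Arg1 result was not tested. The summed ILC2 markers, with the cytokines Il5 and Il13 in the list, were at 2571 to 2788 FPKM in STAT3-KO with IL-33, 8347 to 9141 FPKM in WT with IL-33, 2604 to 2644 FPKM in STAT3-KO control and 2545 to 2710 FPKM in WT control. Gata3, Il1rl1, Il7r, Klrg1, Thy1 and Il17rb were lowest in the group where Arg1 was lowest. Rora, Il2ra, Icos, Il13 and Il5 were not. Il2ra was at 328 and 363 FPKM in STAT3-KO with IL-33, 890 and 1049 FPKM in WT with IL-33 and 79.1 to 109 FPKM in the controls. Icos was at 105 and 115 FPKM in STAT3-KO with IL-33, 102 and 84.8 FPKM in WT with IL-33 and 188 to 294 FPKM in the controls. Il1rl1, the IL-33 receptor chain, was at 78.5 and 92.4 FPKM in STAT3-KO with IL-33, 350.1 and 369.5 FPKM in WT with IL-33 and 231 to 424 FPKM in the controls. Gata3 was at 175 and 171 FPKM in STAT3-KO with IL-33, 278 and 292 FPKM in WT with IL-33 and 454 to 516 FPKM in the controls. Thy1 was at 2.56 and 2.37 FPKM in STAT3-KO with IL-33, 31.7 and 38.0 FPKM in WT with IL-33 and 19.6 to 41.9 FPKM in the controls. The part of these markers in the Arg1 result was not tested either.

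The genes whose pattern over the 8 libraries was most like that of Arg1 on the log2 scale were Tuba8, an alpha tubulin (Pearson r = 0.994), Crip1, a LIM domain protein (r = 0.992), and Zc3hav1, the zinc finger antiviral protein (r = 0.989). The 8 libraries fall into 4 groups, so such values mostly describe group means. Tuba8 averaged 25.0 FPKM in STAT3-KO with IL-33, 74.5 FPKM in WT with IL-33, 68.9 FPKM in STAT3-KO control and 86.5 FPKM in WT control.

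Arg2, the mitochondrial arginase (ENSMUSG00000021125, GRCm38 chr12:79130777-79156301, plus strand), was at or near 0. Its values amounted to 5 and 0 reads in STAT3-KO with IL-33, 0 and 2 reads in WT with IL-33, 2 and 6 reads in STAT3-KO control and 1 and 11 reads in WT control. The highest value was 0.486 FPKM, in WT control, where 3 reads in a library correspond to between 0.106 and 0.133 FPKM for this gene. It did not reach 1 FPKM in any library and was not tested, and no difference was detectable at this depth.

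Odc1, ornithine decarboxylase and the committed step into polyamines (ENSMUSG00000011179, GRCm38 chr12:17544794-17551505, plus strand), was at 14.1 and 14.0 FPKM in STAT3-KO with IL-33, 13.5 and 9.42 FPKM in WT with IL-33, 3.28 and 3.39 FPKM in STAT3-KO control and 5.11 and 4.95 FPKM in WT control. All 4 libraries with IL-33 lay above all 4 controls, and the STAT3-KO controls were the lowest. IL-33 raised it 4.21-fold by group means in STAT3-KO cells (log2 difference 1.79 ± 0.18, limma adjusted p = 0.000107) and 2.28-fold in WT cells (1.03 ± 0.18, limma adjusted p = 0.00315). STAT3-KO and WT cells with IL-33 differed by 0.29 (95% interval -0.12 to 0.70, limma adjusted p = 0.259), and the control groups by -0.48 ± 0.18 (limma adjusted p = 0.458). The responses differed by 0.77 ± 0.26, which missed the threshold (limma adjusted p = 0.0776) and passed it without the first WT library with IL-33 (1.01, limma adjusted p = 0.0492). The genes most like Odc1 over the 8 libraries were Hdac1, a histone deacetylase (Pearson r = 0.987), Ppa1, a cytosolic pyrophosphatase (r = 0.987), and Anp32e, a histone chaperone (r = 0.984).

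Azin1, antizyme inhibitor 1, resembles ornithine decarboxylase but lacks its activity (ENSMUSG00000037458, GRCm38 chr15:38487430-38519266, minus strand). It was at 26.7 and 34.5 FPKM in STAT3-KO with IL-33, 50.3 and 53.7 FPKM in WT with IL-33, 35.8 and 34.8 FPKM in STAT3-KO control and 38.0 and 38.7 FPKM in WT control. Both WT libraries with IL-33 were above the other 6 libraries, and both STAT3-KO libraries with IL-33 were below them. With IL-33, STAT3-KO cells held 0.588 of the WT mean (log2 difference -0.76 ± 0.13, limma adjusted p = 0.00346). IL-33 raised Azin1 1.36-fold in WT cells (0.43 ± 0.13, limma adjusted p = 0.0355). That call was lost on leaving out either WT control library, either STAT3-KO control library or either WT library with IL-33, with limma adjusted p between 0.0554 and 0.157. In STAT3-KO cells the difference with IL-33 was -0.21 ± 0.13 (limma adjusted p = 0.218), and it was called without the second STAT3-KO library with IL-33 (-0.39, limma adjusted p = 0.0329). The responses differed by -0.64 ± 0.19 (limma adjusted p = 0.0543), a difference that was called without that same library (-0.82, limma adjusted p = 0.0176).

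Oaz1, ornithine decarboxylase antizyme 1 (ENSMUSG00000035242, GRCm38 chr10:80826656-80829290, plus strand), was as abundant as Arg1 and ranked between 61 and 124 of all listed genes. Its protein is known to be made only when the ribosome shifts frame at a stop codon that interrupts the reading frame, a shift that polyamines promote. The site is shown because the amount of antizyme depends on it and not on the RNA level alone. In the reference it lies at GRCm38 chr10:80828268-80828324 on the plus strand, and the capitals mark the last codon before the stop, TCC, and the stop codon TGA, which closes an open frame of 68 codons.
Oaz1 frameshift site: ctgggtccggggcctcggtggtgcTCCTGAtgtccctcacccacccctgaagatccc
Nothing about this shift can be read from FPKM values.

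The Oaz1 RNA was at 439.7 and 339 FPKM in STAT3-KO with IL-33, 396 and 454 FPKM in WT with IL-33, 461 and 448 FPKM in STAT3-KO control and 538 and 499 FPKM in WT control. The controls lay above the IL-33 libraries of their own genotype, and the genotypes overlapped with IL-33. The log2 differences with IL-33 were -0.23 ± 0.13 in STAT3-KO cells (limma adjusted p = 0.164) and -0.29 ± 0.13 in WT cells (limma adjusted p = 0.117). Neither was called, although the first passed without the first STAT3-KO library with IL-33 (-0.42, limma adjusted p = 0.0224), and the second passed, at the same size, without the first or the second STAT3-KO library with IL-33 (limma adjusted p of 0.0406 and 0.041). STAT3-KO and WT cells differed by -0.13 ± 0.13 with IL-33 (limma adjusted p = 0.478).

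Set against Odc1 in the same library, Oaz1 was 31.3 and 24.2 times as abundant per length in STAT3-KO with IL-33, 29.3 and 48.2 times in WT with IL-33, 140.4 and 132 times in STAT3-KO control and 105 and 101 times in WT control. The ratio was thus lower in every IL-33 library than in every control, and the genotypes overlapped with IL-33. The ratio of Azin1 to Odc1 averaged 2.18 ± 0.40 in STAT3-KO with IL-33, 4.71 ± 1.41 in WT with IL-33, 10.6 ± 0.443 in STAT3-KO control and 7.62 ± 0.278 in WT control (SD, n = 2 each). Here both STAT3-KO libraries with IL-33, at 1.90 and 2.46, lay below both WT libraries with IL-33, at 3.72 and 5.71. These ratios are descriptions without a test. Of the 50-base windows of the transcripts, 42.2% for Odc1 occur in 16 other genes, 6 of them listed in the table as pseudogenes. For Oaz1 52.2% occur in the pseudogene Oaz1-ps, which was listed at 15.6 to 23.9 FPKM. How their reads were split is not known, so the size of the ratios is uncertain. It is uncertain also because whole reads were recovered with all exons together, 2558 bases for Oaz1 and 3405 for Odc1. Their longest coding transcripts have 1071 and 2208 bases.

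Amd1, the decarboxylase that makes the aminopropyl donor (ENSMUSG00000075232, GRCm38 chr10:40287458-40302186, minus strand), varied least of the synthesis genes. It was at 37.0 and 42.7 FPKM in STAT3-KO with IL-33, 32.6 and 30.8 FPKM in WT with IL-33, 37.8 and 39.4 FPKM in STAT3-KO control and 30.0 and 31.9 FPKM in WT control. Every STAT3-KO library lay above every WT library, by a log2 difference of 0.32 ± 0.12 with IL-33 (limma adjusted p = 0.0661) and of 0.31 ± 0.12 in the controls (limma adjusted p = 0.446). Neither was called, and the difference with IL-33 passed without the first STAT3-KO library with IL-33 (0.42, limma adjusted p = 0.0495) and under median-of-ratios rescaling (0.34, limma adjusted p = 0.0491). With IL-33 against control, the 95% interval ran from -0.22 to 0.30 in STAT3-KO cells and from -0.23 to 0.30 in WT cells. Of the 50-base windows of the Amd1 transcript 87.6% also occur in other genes, mainly in the retrocopy Amd2, so that its reads could have been split. Amd2 itself was at 0.262 FPKM or less in every library.

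Srm, spermidine synthase (ENSMUSG00000006442, GRCm38 chr4:148591503-148594993, plus strand), was at 114 and 81.6 FPKM in STAT3-KO with IL-33, 36.0 and 31.1 FPKM in WT with IL-33, 11.01 and 19.2 FPKM in STAT3-KO control and 52.8 and 19.5 FPKM in WT control. The STAT3-KO libraries with IL-33 were the highest of all, and the WT controls differed 2.70-fold from each other. IL-33 raised Srm 6.48-fold by group means in STAT3-KO cells (log2 difference 2.65 ± 0.42, limma adjusted p = 0.00112). In WT cells the difference was 0.05 ± 0.42, with a 95% interval from -0.90 to 1.00 (limma adjusted p = 0.935). It was -0.64 without the second WT control library and 0.75 without the first, neither of them called. With IL-33, STAT3-KO cells had 2.91 times the Srm of WT cells (1.50 ± 0.42, limma adjusted p = 0.0248), and the responses differed by 2.59 ± 0.59 (limma adjusted p = 0.0221).

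The spread of Srm bears on these calls. The control groups differed by -1.09 ± 0.42, which was not called (limma adjusted p = 0.458). When 1 library was left out, the difference of responses ran from 1.90, without the first WT control, to 3.29, without the second. The difference between STAT3-KO and WT with IL-33 was no longer called without the first or the second WT library with IL-33 (1.60 and 1.40) or without the first STAT3-KO library with IL-33 (1.26), with limma adjusted p between 0.0821 and 0.129. The difference of responses was no longer called without any of these 3 libraries or without the first STAT3-KO control library, with values between 2.22 and 2.70 and limma adjusted p between 0.0636 and 0.0816. The rise in STAT3-KO cells was called in every one of the 19 other fits that were run.

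Sms, spermine synthase (ENSMUSG00000071708, GRCm38 chrX:157443855-157492287, minus strand), was at 34.7 and 35.3 FPKM in STAT3-KO with IL-33, 24.3 and 20.8 FPKM in WT with IL-33, 10.95 and 12.4 FPKM in STAT3-KO control and 8.51 and 10.9 FPKM in WT control. The 4 groups did not overlap, but the control groups came close, at 10.95 FPKM in STAT3-KO and 10.9 FPKM in WT. Sms had a log2 difference of 0.25 ± 0.15 between STAT3-KO control and WT control, which was not called (limma adjusted p = 0.710). IL-33 raised it 3.0-fold in STAT3-KO cells (log2 difference 1.51 ± 0.15, limma adjusted p = 0.000109) and 2.33-fold in WT cells (1.15 ± 0.15, limma adjusted p = 0.000791), and the responses differed by 0.36 ± 0.22, which was not called (limma adjusted p = 0.283). With IL-33, STAT3-KO cells held 1.55 times the WT level (0.62 ± 0.15, limma adjusted p = 0.0158). That call was lost without the second WT library with IL-33 (0.51), the first STAT3-KO library with IL-33 (0.63) or the second (0.60), with limma adjusted p between 0.058 and 0.109. Sms shares 28.7% of its 50-base windows with other genes, above all with the pseudogene Sms-ps, which was listed at 38.4 and 34.2 FPKM in STAT3-KO with IL-33, 20.4 and 20.4 FPKM in WT with IL-33, 7.13 and 9.57 FPKM in STAT3-KO control and 7.90 and 11.01 FPKM in WT control. Reads within the shared windows cannot be told apart between the gene and the pseudogene, and adding the listed pseudogenes to Sms changed none of its calls.

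Added up within a library, the synthesis genes Odc1, Amd1, Srm and Sms came to 199.7 and 174 FPKM in STAT3-KO with IL-33, 106 and 92.2 FPKM in WT with IL-33, 63.0 and 74.4 FPKM in STAT3-KO control and 96.4 and 67.3 FPKM in WT control. Both STAT3-KO libraries with IL-33 lay above the other 6, and Srm was the highest of the 4 genes in both, at 114 and 81.6 FPKM. The WT libraries with IL-33 overlapped the WT controls.

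**Figure D2:**
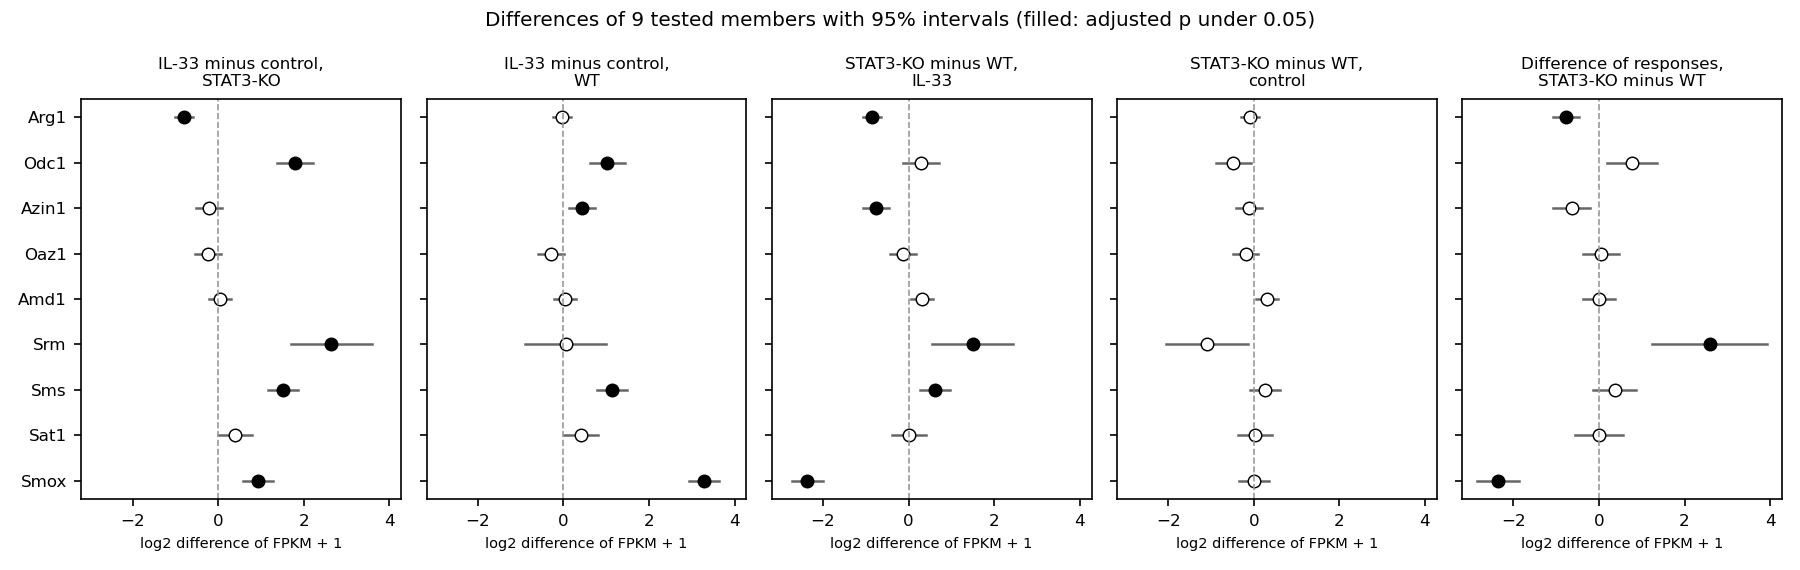
Log2 differences of FPKM + 1 (horizontal axes) for the 9 tested members in 5 comparisons, with 95% intervals from limma. Filled points were called at an adjusted p under 0.05. Smox stands farthest from 0 in WT with IL-33, at 3.30, and Srm in STAT3-KO with IL-33, at 2.65, while no point is filled in the comparison of the controls.

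Sat1, spermidine and spermine acetyltransferase, is the entry to polyamine breakdown and export (ENSMUSG00000025283, GRCm38 chrX:155213132-155216449, minus strand). It was at 17.3 and 14.0 FPKM in STAT3-KO with IL-33, 17.4 and 13.6 FPKM in WT with IL-33, 11.4 and 11.7 FPKM in STAT3-KO control and 10.3 and 12.6 FPKM in WT control. All libraries with IL-33 lay above all controls, and the genotypes overlapped in both conditions. The differences with IL-33 were alike in size, 0.40 ± 0.17 in STAT3-KO cells (limma adjusted p = 0.0829) and 0.41 ± 0.17 in WT cells (limma adjusted p = 0.0988), and neither was called. Both were called under median-of-ratios rescaling (0.59 and 0.56, limma adjusted p of 0.02 and 0.0343) and under quantile normalization (0.49 and 0.51, limma adjusted p of 0.0407 and 0.0449). The responses differed by -0.01, with a 95% interval from -0.56 to 0.55 (limma adjusted p = 0.991). Among the genes most like Sat1 were Rpl27, a ribosomal protein (Pearson r = 0.953 over the 8 libraries), and Ppif, the mitochondrial cyclophilin (r = 0.940).

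Smox, spermine oxidase, turns spermine back into spermidine and releases hydrogen peroxide (ENSMUSG00000027333, GRCm38 chr2:131491496-131525922, plus strand). It was at 6.25 and 6.89 FPKM in STAT3-KO with IL-33, 36.1 and 39.9 FPKM in WT with IL-33, 2.69 and 3.25 FPKM in STAT3-KO control and 3.03 and 2.90 FPKM in WT control. The WT libraries with IL-33 stood far above the other 6, the STAT3-KO libraries with IL-33 lay above the controls, and the controls overlapped. IL-33 raised Smox 2.21-fold in STAT3-KO cells (log2 difference 0.93 ± 0.15, limma adjusted p = 0.00143) and 12.8-fold in WT cells (3.30 ± 0.15, limma adjusted p = 3.67e-06). With IL-33, STAT3-KO cells held 0.173 of the WT level (-2.36 ± 0.15, limma adjusted p = 3.26e-05), and the responses differed by -2.36 ± 0.22 (limma adjusted p = 0.000732). Between the controls the difference was -0.00 with a 95% interval from -0.35 to 0.35. No 50-base window of the longest Smox transcript occurs in another gene, and every call stood in each of the other fits, the difference of responses ranging from -2.51 to -2.22.

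The ratio of Smox to Sms, the enzymes that break down and build spermine, was 0.180 and 0.195 in STAT3-KO with IL-33, 1.48 and 1.92 in WT with IL-33, 0.245 and 0.262 in STAT3-KO control and 0.356 and 0.267 in WT control. Only the WT libraries with IL-33 held more Smox than Sms RNA per length, and the STAT3-KO libraries with IL-33 had the lowest ratios of all. Sat1 and Smox together came to 23.5 and 20.9 FPKM in STAT3-KO with IL-33, 53.5 and 53.6 FPKM in WT with IL-33, 14.1 and 14.9 FPKM in STAT3-KO control and 13.3 and 15.5 FPKM in WT control.

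**Figure D3:**
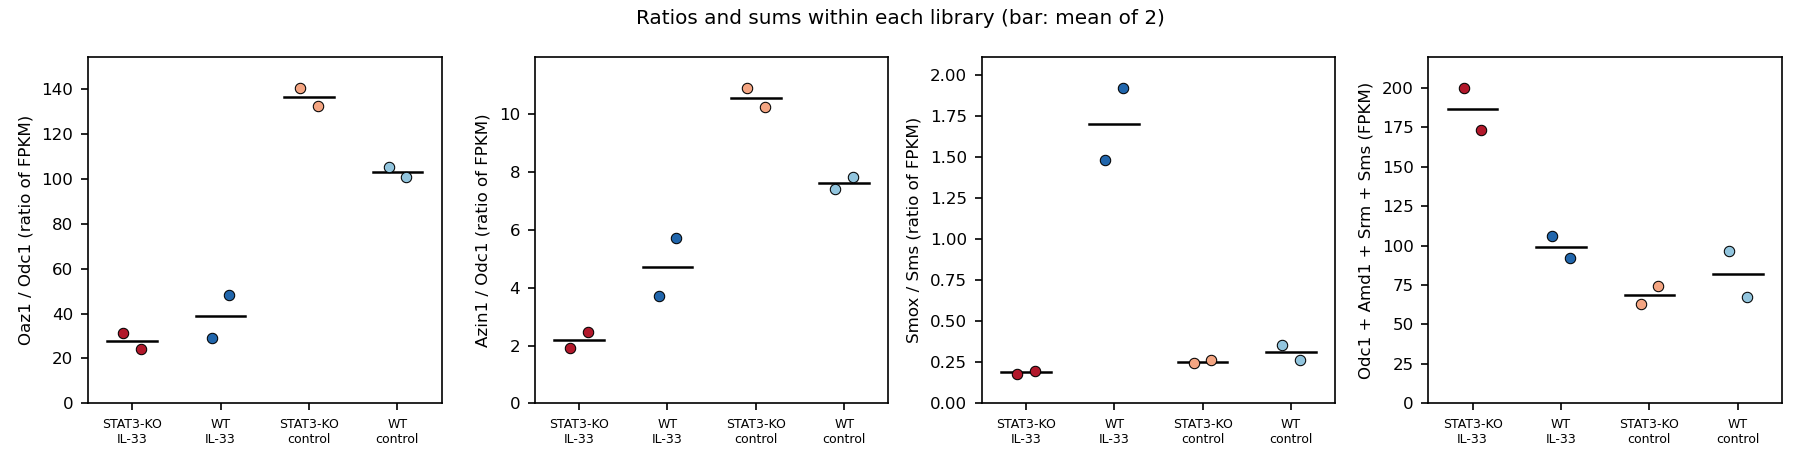
Ratios of FPKM and 1 sum of FPKM within each library (vertical axes, from 0), with points for libraries and bars for the means of 2. The ratios of Oaz1 and of Azin1 to Odc1 are lower in all IL-33 libraries than in all controls, Smox to Sms exceeds 1 in WT with IL-33 alone, at 1.48 and 1.92, and the synthesis sum is highest in STAT3-KO with IL-33, at 199.7 and 174 FPKM.

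Odc1, Sms and Smox were the members called higher with IL-33 in both genotypes, and their promoters are shown for that reason. RefSeq (GRCm38.p6) gave 7 promoters, from 250 bases before to 50 after the start site, for 6 members, namely Smox, Amd1, Oaz1, Odc1, Sat1 and Sms with 2 start sites. The motifs searched on both strands were the E-box CACGTG, bound by MYC with MAX, the STAT motif TTCNNNGAA, the STAT6 motif, which has 1 more base between TTC and GAA, and the C/EBP-ATF composite TGATGNAAN. The upstream Sms promoter alone held CACGTG, shown in capitals, with its first base at position -196 from the start site, and 7.15% of all 32851 promoters held it. The other motifs were in none of the 7 windows and in 8.3%, 6.95% and 3.95% of all promoters in the order given, which says nothing about binding elsewhere. The Smox window lies at chr2:131491612-131491911 on the plus strand (71.0% G and C), the Odc1 window at chr12:17544623-17544922 on the plus strand (78.0%) and the Sms window at chrX:157492238-157492537 on the minus strand (50.3%).
Smox promoter: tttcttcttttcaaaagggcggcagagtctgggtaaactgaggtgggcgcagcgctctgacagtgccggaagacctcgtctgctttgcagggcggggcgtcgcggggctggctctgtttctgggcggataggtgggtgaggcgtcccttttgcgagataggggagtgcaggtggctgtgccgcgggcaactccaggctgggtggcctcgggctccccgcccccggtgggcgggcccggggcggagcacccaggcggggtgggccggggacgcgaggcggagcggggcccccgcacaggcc
Odc1 promoter: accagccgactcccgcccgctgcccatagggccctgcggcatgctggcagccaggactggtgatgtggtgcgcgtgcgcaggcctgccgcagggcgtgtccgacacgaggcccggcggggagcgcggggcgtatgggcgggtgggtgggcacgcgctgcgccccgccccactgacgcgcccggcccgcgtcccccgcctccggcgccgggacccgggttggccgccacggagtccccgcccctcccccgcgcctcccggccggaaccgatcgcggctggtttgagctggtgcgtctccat
Sms promoter: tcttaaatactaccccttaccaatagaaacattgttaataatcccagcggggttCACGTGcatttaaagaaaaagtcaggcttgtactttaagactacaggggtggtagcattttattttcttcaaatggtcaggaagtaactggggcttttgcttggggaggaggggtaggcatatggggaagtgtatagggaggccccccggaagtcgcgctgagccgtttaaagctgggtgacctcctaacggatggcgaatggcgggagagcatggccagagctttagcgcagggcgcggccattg
None of the searched motifs is in the Smox or Odc1 window, nor in the downstream Sms window, which has 74.3% G and C and is not printed.

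Other genes of arginine and proline metabolism moved in both directions. Of 21 on the list, 18 were in the table and 11 were tested. With IL-33, 6 rose and 3 fell in STAT3-KO cells (median log2 difference 0.31, against -0.18 over all genes), and 3 rose and none fell in WT cells (median 0.21, against -0.14). Ass1, which makes the precursor of arginine from citrulline, was at 71.2 and 66.0 FPKM in STAT3-KO with IL-33, 125 and 129.9 FPKM in WT with IL-33, 109 and 106 FPKM in STAT3-KO control and 103 and 90.9 FPKM in WT control. Like Arg1 it was lowest in both STAT3-KO libraries with IL-33, which lay below all others. It fell with IL-33 in STAT3-KO cells (-0.64 ± 0.10, limma adjusted p = 0.00111) and rose in WT cells (0.39 ± 0.10, limma adjusted p = 0.0174), and the responses differed by -1.04 ± 0.14 (limma adjusted p = 0.0035). Padi2, which converts arginine in proteins to citrulline, had the same directions, with -1.05 ± 0.15 in STAT3-KO cells (limma adjusted p = 0.00058) and 0.82 ± 0.15 in WT cells (limma adjusted p = 0.00334). Without the second WT control library or either WT library with IL-33, the rise of Ass1 in WT cells was no longer called, at 0.30 to 0.42 (limma adjusted p between 0.0583 and 0.102).

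Gatm, which takes arginine into creatine synthesis, rose with IL-33 in WT cells to 4.22 and 3.73 FPKM against at most 0.298 FPKM in WT control (log2 difference 2.07 ± 0.23, limma adjusted p = 0.000277). In STAT3-KO cells it was at 1.10 and 0.788 FPKM with IL-33 and at most 0.228 FPKM in control (0.81 ± 0.23, limma adjusted p = 0.0173). Gatm passed the filter on low values through IL-33 libraries alone, so that a difference was built into its being tested. Rars, arginyl-tRNA synthetase, averaged 149 FPKM in STAT3-KO with IL-33, 89.0 FPKM in WT with IL-33, 71.2 FPKM in STAT3-KO control and 74.5 FPKM in WT control, and rose in STAT3-KO cells by 1.05 ± 0.10 (limma adjusted p = 7.37e-05). Pycrl, a pyrroline-5-carboxylate reductase of proline synthesis, rose by 0.72 ± 0.14 in STAT3-KO cells (limma adjusted p = 0.00319). Between STAT3-KO and WT cells with IL-33, 4 of the 11 were higher and 4 lower (median 0.12, against 0.01 over all genes). Oat, which links ornithine to proline, was among the higher, with 121 and 123 FPKM in STAT3-KO against 76.0 and 80.3 FPKM in WT (0.64 ± 0.09, limma adjusted p = 0.00118). Nos2, the inducible nitric oxide synthase that competes with arginase for arginine, was at 0.348 and 1.26 FPKM in STAT3-KO with IL-33 and was listed at 0 in the other 6 libraries. In the controls none of the 11 was called (median -0.02, against 0.02), and Ass1 differed by 0.15 and Oat by 0.15. The responses differed upward for 2 and downward for 4 of the 11.

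Of 8 carriers of arginine and ornithine, 4 were tested, and the cationic amino acid transporters Slc7a2 and Slc7a3 stayed at 0.682 FPKM or less. With IL-33, none rose and 2 fell in STAT3-KO cells (median -0.46, against -0.18 over all genes), and 1 rose and 2 fell in WT cells (median -0.27, against -0.14). Slc25a29, the mitochondrial carrier of basic amino acids, fell by 0.92 in STAT3-KO and by 0.77 in WT cells (limma adjusted p of 0.00616 and 0.0193). Slc3a2, the heavy chain that the exchangers need, fell by 0.44 and by 0.36 in the same order (limma adjusted p of 0.0123 and 0.0396). Slc7a6, an arginine exchanger that pairs with it, rose by 0.40 ± 0.12 in WT cells (limma adjusted p = 0.0299). Slc7a1, the main arginine importer of many cells, was at 1.08 and 1.69 FPKM in STAT3-KO with IL-33 against 2.37 and 2.82 FPKM in WT with IL-33, a difference of -0.60 ± 0.21 that was not called (limma adjusted p = 0.0568). No carrier was called between the genotypes in either condition. The WT calls of Slc3a2 and Slc7a6 were lost without any 1 of the control or WT IL-33 libraries, that of Slc25a29 without the first WT control or either WT library with IL-33, and the STAT3-KO call of Slc3a2 without either STAT3-KO control or the first STAT3-KO library with IL-33 (limma adjusted p between 0.0533 and 0.202). Under median-of-ratios rescaling Slc3a2 was called in neither genotype (limma adjusted p of 0.115 in STAT3-KO and 0.225 in WT cells).

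Of 16 other polyamine genes 9 were in the table and 6 were tested. With IL-33, 2 rose and 3 fell in STAT3-KO cells (median -0.28, against -0.18 over all genes), and 1 rose and 1 fell in WT cells (median -0.32, against -0.14). Azin2, another antizyme inhibitor, was at 5.24 and 4.01 FPKM in STAT3-KO with IL-33, 0.612 and 0.595 FPKM in WT with IL-33, 0.517 and 0.186 FPKM in STAT3-KO control and 0.341 and 0.125 FPKM in WT control. It was thus above 1 FPKM in both STAT3-KO libraries with IL-33 and in no other library, the opposite order of genotypes to Azin1, and rose there by 2.06 ± 0.23 (limma adjusted p = 0.000202). STAT3-KO exceeded WT with IL-33 by 1.80 ± 0.23 (limma adjusted p = 0.000816). Since it passed the filter on low values through that group alone, a difference was built into its being tested.

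Paox, which oxidises acetylated polyamines, fell with IL-33 in both genotypes and was at 0.925 and 0.837 FPKM in STAT3-KO with IL-33, 2.57 and 2.65 FPKM in WT with IL-33, 3.81 and 2.81 FPKM in STAT3-KO control and 5.68 and 5.71 FPKM in WT control. The log2 differences were -1.19 ± 0.19 in STAT3-KO and -0.89 ± 0.19 in WT cells (limma adjusted p of 0.00119 and 0.00736), opposite in sign to those of Smox. Gpc1, a heparan sulfate proteoglycan linked to polyamine uptake, fell by 0.92 in STAT3-KO cells (limma adjusted p = 0.00835). It reached 1 FPKM in the STAT3-KO controls alone, at 1.05 and 1.11 FPKM, so that a difference was built into its being tested. Oaz2, another antizyme, fell by 0.59 in STAT3-KO cells (limma adjusted p = 0.00175) and was 0.49 lower in STAT3-KO than in WT cells with IL-33 (limma adjusted p = 0.0066). Atp13a3, a polyamine carrier of the P-type ATPase family, was at 1.83 and 2.07 FPKM in STAT3-KO with IL-33, 4.81 and 4.03 FPKM in WT with IL-33 and at most 2.19 FPKM in the controls, and rose in WT cells by 0.83 ± 0.19 (limma adjusted p = 0.0115). The lysosomal polyamine exporter Atp13a2 went the other way, at 8.94 and 8.25 FPKM in STAT3-KO with IL-33 against 3.49 and 3.68 FPKM in WT with IL-33, and its responses differed by 1.25 ± 0.35 (limma adjusted p = 0.0464). Between STAT3-KO and WT with IL-33, 2 of the 6 were higher and 3 lower (median -0.39, against 0.01), and no gene of the list was called in the controls. Calls were lost for Gpc1 without the first STAT3-KO library with IL-33 (limma adjusted p = 0.0572), for Atp13a3 in WT cells without the first WT library with IL-33 (limma adjusted p = 0.0793), for Atp13a3 between the genotypes without either first IL-33 library (limma adjusted p of 0.0557 for STAT3-KO and 0.0708 for WT) and for Oaz2 between the genotypes without the second WT library with IL-33 (limma adjusted p = 0.0535). The difference of responses of Atp13a2 was lost without any 1 library other than the second WT control (limma adjusted p between 0.0747 and 0.13).

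Spermidine is also the donor of hypusine, a modified lysine found in the translation factor eIF5A. Of the 4 genes of that pathway all were tested. With IL-33, 3 rose in STAT3-KO cells (median 0.50, against -0.18 over all genes) and 1 in WT cells (median 0.38, against -0.14), and none fell. Eif5a was at 436 and 438 FPKM in STAT3-KO with IL-33, 348 and 341 FPKM in WT with IL-33, 211 and 193 FPKM in STAT3-KO control and 232 and 206 FPKM in WT control. It rose by 1.11 ± 0.09 in STAT3-KO cells (limma adjusted p = 4.15e-05) and by 0.65 ± 0.09 in WT cells (limma adjusted p = 0.00112), and STAT3-KO exceeded WT with IL-33 by 0.34 ± 0.09 (limma adjusted p = 0.0231). That difference between the genotypes was not called with the length trend removed (0.18, limma adjusted p = 0.137). Nor was it called with no filter, in the compared groups alone or without the variance trend (limma adjusted p between 0.0527 and 0.0954). Dhps and Dohh, the enzymes that make hypusine, rose by 0.40 and 0.60 in STAT3-KO cells (limma adjusted p of 0.0456 and 0.0277). In WT cells their differences were 0.34 and 0.27, not called (limma adjusted p of 0.0951 and 0.285). Eif5a2, a paralog of Eif5a, was 1.10 lower in STAT3-KO than in WT cells with IL-33, at 1.12 and 1.06 against 3.28 and 3.70 FPKM (limma adjusted p = 0.0026). Neither in the controls nor in the difference of responses was a gene of this pathway called, with Eif5a at -0.11 and 0.46 (limma adjusted p of 0.815 and 0.051). The calls of Dhps without any 1 of the STAT3-KO or IL-33 libraries, of Dohh without the second STAT3-KO control or the first STAT3-KO library with IL-33, and of Eif5a between the genotypes without any 1 IL-33 library were lost (limma adjusted p between 0.0529 and 0.188), and the difference of responses of Eif5a was called without the second WT control library (0.54, limma adjusted p = 0.044).

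Each aminopropyl transfer leaves methylthioadenosine, which a salvage route returns to methionine. All 7 genes of that route and of S-adenosylmethionine synthesis were tested. With IL-33, 2 rose and 2 fell in STAT3-KO cells (median -0.09, against -0.18 over all genes), and none rose and 3 fell in WT cells (median -0.28, against -0.14). Mtap, which opens the salvage, rose in STAT3-KO cells by 0.77 ± 0.12 (limma adjusted p = 0.000959) and was at 66.2 and 76.5 FPKM in STAT3-KO against 46.1 and 41.5 FPKM in WT with IL-33. Adi1, an enzyme near its end, fell with IL-33 by 0.98 in STAT3-KO and by 1.39 in WT cells (limma adjusted p of 0.000693 and 0.000177). Mat2b, the regulatory subunit of S-adenosylmethionine synthetase, fell by 0.49 and by 0.75 in the same order (limma adjusted p of 0.00351 and 0.00064). In STAT3-KO cells the call of Mat2b was lost with the length trend removed (-0.26, limma adjusted p = 0.0583). Mri1, the isomerase that follows Mtap, rose by 0.59 in STAT3-KO cells (limma adjusted p = 0.0209), and the phosphatase gene Enoph1 fell by 0.51 in WT cells (limma adjusted p = 0.0306). STAT3-KO exceeded WT with IL-33 for 3 of the 7, namely Mtap, Mri1 and Adi1 (median 0.23, against 0.01), no gene was called in the controls, and the responses differed for Mtap alone, by 0.65 ± 0.17 (limma adjusted p = 0.0345). Leaving out 1 library ended the call of Enoph1 for any WT library (limma adjusted p between 0.0641 and 0.125), of Adi1 between the genotypes for any library (between 0.0536 and 0.229) and of the response difference of Mtap for any library but the second WT control and the first STAT3-KO library with IL-33 (between 0.0628 and 0.118). Mri1 lost its calls without either STAT3-KO control, the first STAT3-KO library with IL-33 or, between the genotypes, either WT library with IL-33 (limma adjusted p between 0.0546 and 0.201). Without that first STAT3-KO library its values were 0.38 with IL-33 in STAT3-KO cells and 0.35 between the genotypes.

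**Figure D4:**
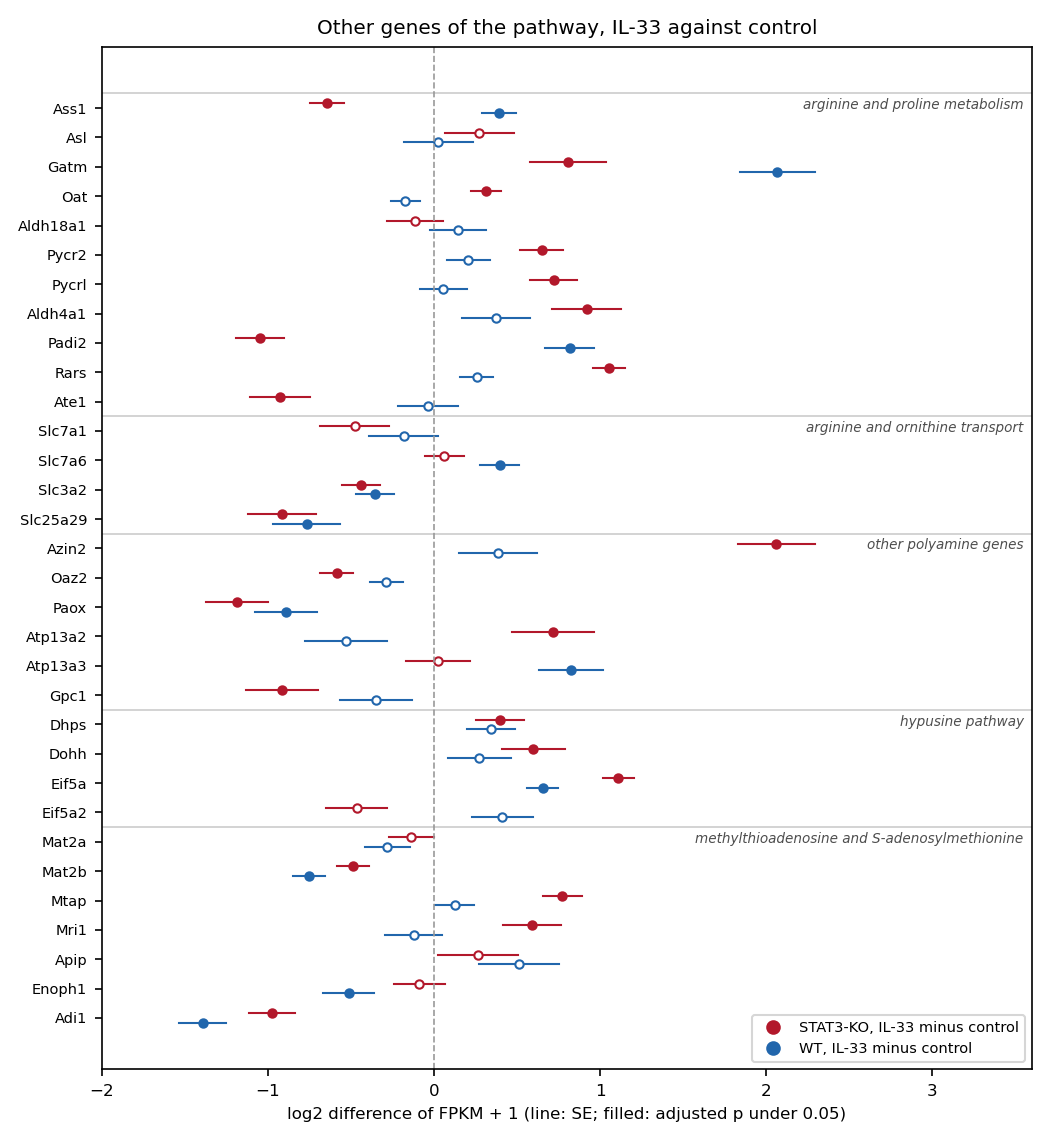
Log2 differences of FPKM + 1 with IL-33 against control (horizontal axis) for the tested genes of the 5 lists of other pathway genes, in STAT3-KO cells (red) and WT cells (blue). Lines are standard errors and filled points were called by limma at an adjusted p under 0.05. Ass1 and Padi2 have filled points on both sides of 0, at -0.64 and -1.05 in STAT3-KO and at 0.39 and 0.82 in WT cells.

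Among 9 transcription factors known to act on genes of this pathway, 8 were tested. With IL-33, 3 rose and 5 fell in STAT3-KO cells (median -0.89, against -0.18 over all genes), and 3 rose and 4 fell in WT cells (median -0.31, against -0.14). Myc, which is known to act on Odc1, was at 218 and 225 FPKM in STAT3-KO with IL-33, 143 and 157 FPKM in WT with IL-33, 89.6 and 83.2 FPKM in STAT3-KO control and 94.6 and 87.0 FPKM in WT control. All IL-33 libraries lay above all controls and both STAT3-KO libraries above both WT libraries with IL-33. It rose by 1.35 ± 0.10 in STAT3-KO and by 0.71 ± 0.10 in WT cells (limma adjusted p of 2.05e-05 and 0.00095), and the responses differed by 0.63 ± 0.14 (limma adjusted p = 0.0197). Max, its partner on the E-box, was at 22.8 and 24.4 FPKM in STAT3-KO against 3.64 and 3.47 FPKM in WT with IL-33, and at 12.5 to 15.5 FPKM in the controls, so that it rose by 0.61 with IL-33 in STAT3-KO cells and fell by 1.69 in WT cells (limma adjusted p of 0.00711 and 6.1e-05). Nfe2l2, the oxidative stress factor, fell by 2.20 in STAT3-KO and by 1.28 in WT cells (limma adjusted p of 6.6e-06 and 0.000192). Mycn, a relative of Myc, was listed at 0 in both STAT3-KO libraries with IL-33, at 2.01 and 0.709 FPKM in WT with IL-33 and at 7.47 to 9.72 FPKM in the controls. Atf4, the factor of amino acid shortage, was at 146 and 149 FPKM in STAT3-KO against 213 and 194 FPKM in WT with IL-33 and at 106 to 116 FPKM in the controls, and rose by 0.86 ± 0.10 in WT cells (limma adjusted p = 0.00035). Hif1a, a hypoxia factor, was lower in STAT3-KO cells too, with 18.6 and 33.8 FPKM in STAT3-KO against 184 and 183 FPKM in WT with IL-33 (-2.82 ± 0.24, limma adjusted p = 0.000112). Stat6, which acts on Arg1 in mouse macrophages, was at 39.3 and 55.5 FPKM in STAT3-KO against 51.4 and 51.7 FPKM in WT with IL-33, with overlap (-0.14 ± 0.15, limma adjusted p = 0.54), and at 88.8 to 101 FPKM in the controls. It fell with IL-33 by 1.01 ± 0.15 in STAT3-KO and by 0.80 ± 0.15 in WT cells (limma adjusted p of 0.000951 and 0.00473). Between STAT3-KO and WT with IL-33, 2 of the 8 were higher and 5 lower (median -0.78, against 0.01). Stat3, on this list as the deleted gene, was the 1 factor called between the control groups, and not without either STAT3-KO control library (limma adjusted p of 0.0684 and 0.0585). The difference of responses of Myc was lost without the first WT control, either STAT3-KO control or the first WT library with IL-33 (limma adjusted p between 0.0509 and 0.0825). That these factors moved beside the members is a description, and no link between them was tested.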

How the data were processed

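RNA of 8 libraries of cultured mouse lung ILC2s was measured, 2 in each of 4 groups, and samples were grouped by their labels of genotype and treatment. The authors deposited 1 FPKM value per gene and library, made with Bowtie2 and RSEM on GRCm38, per the submitters' processing notes. Versions, annotation release, filters and strand setting are not given in the sources used here. FPKM times exon length (GENCODE M21) lay within 0.02 of a whole number of reads for 93.4% to 94.6% of values of at most 100 reads, which gave each library's depth. Floors of 3 reads cover counting error only.

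The 11877 genes with at least 1 FPKM in at least 2 libraries were fitted as log2(FPKM + 1), with a pseudocount of 1 and 1 mean per group. The fit used every library (limma 3.58.1, R 4.3.3, eBayes with trend), with 4 residual degrees of freedom and a prior of 4.46 at the median. Values of p were adjusted by Benjamini-Hochberg over all tested genes within each of 5 comparisons, and the fit was tested on simulated data. Folds are ratios of group mean FPKM. The labels' replicate numbers were used as names only. Alternatives were other pseudocounts, filters and scalings, fits on the compared groups alone, without the variance trend, with a replicate block or with a gene length trend removed, leaving out each library, and, chosen after seeing the data, adding listed near-identical copies to a member. Near-identical copies were found as 50-base windows of the longest coding transcript that other transcripts hold. Only copies listed as pseudogenes, and Amd2, were added. Python 3.11.15 with pandas 2.3.3 did the rest.

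The members and lists were chosen with earlier results of these data known. The text names all 10 members, from each list and comparison up to 4 called genes of smallest p or the most abundant where none was called, and the 3 genes nearest in pattern to Arg1, Odc1 and Sat1 among tested genes that average at least 5 FPKM in some group, of which 1 is not reported here. Slc7a1, Nos2 and, for the difference of responses, Oat, Ate1 and Stat3 were named outside this rule after their values were seen. The list's Pycr3 is Pycrl in the table.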

Additional observations from a re-analysis of the deposited data

Results flagged for a closer look

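For 17 genes of the members and lists the IL-33 response differed between STAT3-KO and WT cells by the test of the difference itself (limma, Benjamini-Hochberg adjusted over all tested genes), which is a reason to look at them again. Upward and downward calls were 1 and 2 of 9 tested members, and 2 and 4 of 11 genes of arginine and proline metabolism. They were 2 and 0 of 6 other polyamine genes, 1 and 0 of 7 salvage and S-adenosylmethionine genes, and 2 and 3 of 8 transcription factors. These counts include Gatm and Azin2, for which passing the filter on low values built in a difference. No call fell among the 4 carriers or the 4 hypusine genes. Of all 11877 tested genes 15.1% passed the same test, 6.72% upward and 8.43% downward. Values are log2 differences of the responses, STAT3-KO minus WT.

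Among the members they were Srm at 2.59 (adjusted p = 0.0221), Arg1 at -0.77 (adjusted p = 0.00749) and Smox at -2.36 (adjusted p = 0.000732). For Srm the response was 2.65 in STAT3-KO and 0.05 in WT cells, for Arg1 -0.81 and -0.04, and for Smox 0.93 and 3.30.

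Among the other pathway genes, Azin2 at 1.68 (adjusted p = 0.0132), Atp13a2 at 1.25 (adjusted p = 0.0464), Rars at 0.80 (adjusted p = 0.00874), Mtap at 0.65 (adjusted p = 0.0345) and Oat at 0.49 (adjusted p = 0.035) responded more upward in STAT3-KO cells. Padi2 at -1.86 (adjusted p = 0.00138), Gatm at -1.26 (adjusted p = 0.0334), Ass1 at -1.04 (adjusted p = 0.0035) and Ate1, an arginyltransferase, at -0.89 (adjusted p = 0.0495) had a lower response in STAT3-KO than in WT cells. Ate1 averaged 10.1 FPKM with IL-33 and 10.5 FPKM in control in WT cells, and 5.00 and 10.4 FPKM in STAT3-KO cells. Azin2 passed the filter on low values through STAT3-KO with IL-33 alone, and Gatm through IL-33 libraries alone. A difference was thus built into the testing of both genes. Of the transcription factors, Max stood at 2.30 (adjusted p = 0.000509) and Myc at 0.63 (adjusted p = 0.0197). Hif1a stood at -2.89 (adjusted p = 0.00196), Nfe2l2 at -0.92 (adjusted p = 0.0141) and Stat3, the deleted gene, at -0.94 (adjusted p = 0.0197). Gatm, Azin2, Atp13a2, Mtap, Myc, Nfe2l2, Srm, Oat, Ate1 and Stat3 each lost this call when at least 1 library was left out. With a pseudocount of 0.1, Gatm, Azin2, Atp13a2 and Ate1 lost it too (adjusted p of 0.368, 0.0891, 0.0556 and 0.0518). For Gatm it was also lost with a pseudocount of 0.5 (adjusted p = 0.0714), with no filter (adjusted p = 0.069) and under quantile normalization (adjusted p = 0.0521). Gatm lost its call without any 1 library other than the first WT control (adjusted p between 0.0543 and 0.112), Azin2 without the second WT library with IL-33 (adjusted p = 0.0519) and Nfe2l2 without that library or the second STAT3-KO control (adjusted p of 0.0576 and 0.0583). Srm lost its call without the first STAT3-KO control, either WT library with IL-33 or the first STAT3-KO library with IL-33 (adjusted p between 0.0636 and 0.0816). Oat lost its call without any 1 library (adjusted p between 0.0554 and 0.123), and also under quantile normalization, at 0.21 (adjusted p = 0.291), and with the length trend removed, at 0.31 (adjusted p = 0.122). Ate1 lost it without any 1 library other than the second WT control (adjusted p between 0.0929 and 0.148), and Stat3 without either STAT3-KO control, the first WT control, the second WT library with IL-33 or the first STAT3-KO library with IL-33 (adjusted p between 0.0523 and 0.0806).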

How the results depend on the processing

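Of 846 values of tested members under other settings, 810 stayed on their side of the threshold, of which 777 kept their sign and 33, all of them not called, changed it. A further 21 lost a call, 15 gained one and 0 of the called values reversed. The calls of Smox, of Arg1, of Odc1 and Sms with IL-33, of Srm with IL-33 in STAT3-KO cells and of Azin1 between the genotypes with IL-33 stood in every fit run. The cause of the changes was not tested. The IL-33 call of Azin1 in WT cells was also lost with no filter on low values (adjusted p = 0.0672) and without the variance trend (adjusted p = 0.0713). The call of Srm between STAT3-KO and WT with IL-33 was lost with no filter (adjusted p = 0.0955) and under quantile normalization (adjusted p = 0.0512), and its difference of responses with no filter (adjusted p = 0.0905), where 22075 genes were tested. The difference of responses of Azin1 was gained with a minimum of 5 FPKM (adjusted p = 0.0359), and the IL-33 call of Sat1 in WT cells with the length trend removed (adjusted p = 0.0431). Adding near-identical copies changed no member's call. Of the values of named genes of the lists, 1407 stayed on their side of the threshold, 167 lost a call, 4 gained one and 0 reversed.

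Over all genes, 6063 were called with IL-33 in STAT3-KO cells. In WT cells 4285 were called, and between 2528 and 4344 when a library was left out. Without the first WT library with IL-33 there were 2618. Between STAT3-KO control and WT control 55 were called, 34 with a pseudocount of 0.1, 0 in a fit of these 2 groups alone, and between 1 and 43 when a library was left out. Between STAT3-KO and WT with IL-33, 3876 genes were called, and between 2141 and 4085 when a library was left out, where members called fell to 3 without the second WT library with IL-33. For the difference of responses 1799 were called, 1149 with no filter, and between 857 and 2048 when a library was left out. Median-of-ratios rescaling moved the median of all tested genes with IL-33 from -0.18 to -0.02 in STAT3-KO and from -0.14 to -0.01 in WT cells. The share of called genes that were higher moved from 40.0% to 52.0% in STAT3-KO and from 40.2% to 54.4% in WT cells. It was 53.0% and 55.0% in the same order with the length trend removed.

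Deviations of same-numbered libraries from their group means correlated between -0.0619 and 0.0448 over the tested genes. These values show no broad shared pattern, and they cannot tell whether same-numbered libraries shared a mouse, batch or day. With the replicate block 37 genes were called between the controls, 6015 and 4271 with IL-33 in STAT3-KO and WT cells, and no member's call changed. Among the genes of the lists, the response difference of Atp13a2 (adjusted p = 0.0574) and the STAT3-KO call of Dhps (adjusted p = 0.0508) were lost and the response difference of Eif5a was gained (adjusted p = 0.0452).

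Depth limits Arg2, and 2 libraries a group limit the precision of the rest, most of all for Srm, whose WT controls differed 2.70-fold.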

Other observations

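Directly upstream of Arg1 on the other strand, with 135 bases between the 5′ ends, the table lists AC159502.1, a non-coding RNA annotated as sharing the promoter (GRCm38 chr10:24927619-24930059, plus strand). It was singled out after its values were seen. It was at 5.68 and 1.48 FPKM in STAT3-KO with IL-33, 9.94 and 8.84 FPKM in WT with IL-33, 22.5 and 12.5 FPKM in STAT3-KO control and 27.7 and 23.3 FPKM in WT control. With IL-33 it fell by 2.13 ± 0.42 in STAT3-KO cells (limma adjusted p = 0.00363) and by 1.35 ± 0.42 in WT cells (limma adjusted p = 0.0371), where Arg1 itself differed by -0.04. STAT3-KO was lower than WT with IL-33 by a log2 difference of -1.35 ± 0.42 (limma adjusted p = 0.0399), as was Arg1, and the responses differed by -0.78 ± 0.60 (limma adjusted p = 0.409). Med23, a Mediator subunit and the next gene downstream of Arg1, also chosen after its values were seen, fell by 1.60 ± 0.25 in STAT3-KO and by 1.05 ± 0.25 in WT cells (limma adjusted p of 0.00105 and 0.012), and was at 2.33 and 2.99 FPKM in STAT3-KO against 5.06 and 3.26 FPKM in WT with IL-33. Without a known strand setting, reads of overlapping genes could not be told apart, and the annotated bounds of these 3 genes do not overlap.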
